A study of Mus musculus with 6 samples.

Results

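Genes of the Runx and Gfi switch were read out in adult mouse aortic endothelial cells (EC) after Meis1 overexpression. The 8 genes were taken by symbol from a table of 54429 genes: the Runx family (Runx1, Runx2 and Runx3), its cofactor Cbfb, the repressors Gfi1 and Gfi1b, the Runx1 fusion partner Runx1t1, and Myb. All 8 were listed in the table. Of these, 4 (Runx1, Runx2, Cbfb and Gfi1) had enough counts to pass edgeR's filter on low counts, among 16065 genes in all, and the other 4 were at or near a count of 0 in every library. Both groups were primary aortic EC of adult wildtype C57BL/6 mice, bought from a supplier, plated at 100000 cells per well and transduced with a lentiviral vector. The Meis1-OE group received the Meis1 vector and the YFP-CTRL group a YFP vector without Meis1, and each had 3 libraries. Transduction ended at 48 h, YFP+CD31+VEC+ cells were sorted at 72 h, and sorted cells were grown to confluency before RNA was taken, so they were measured after a further period of growth in culture. The comparison uses no untransduced EC and no embryonic hemogenic endothelium (HE). The study states independent replicates, but not whether they came from separate animals, so the p-values below measure the spread between cultures.

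Runx factors bind DNA through the runt domain, and Cbfb binds that domain and raises its affinity for DNA without touching DNA itself. In the embryo, Runx1 is required for HE to become blood, and Gfi1 and Gfi1b act below it as repressors that switch off endothelial genes by recruiting the histone demethylase Kdm1a. Runx2 is best known for bone formation, Runx3 for lymphocytes and sensory neurons, Runx1t1 (ETO) as a corepressor that is fused to RUNX1 in leukemia, and Myb for the maintenance of definitive blood progenitors.

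Annotated start sites of the Runx genes share a short sequence, which is shown as a description. Its relation to the levels of the 3 paralogs in these EC was not tested. RefSeq promoter windows of build GRCm38.p6 (mm10, the build in the submitters' processing notes), from 250 bases before to 50 bases after each start site, were found for 7 of the 8 genes, 10 windows in all, and not for Runx1t1. The longest run that the most upstream windows of Runx1, Runx2 and Runx3 had in common was 18 bases long, in capitals in these 30-base stretches at chr16:92826025-92826054, chr17:44814583-44814612 (both minus strand) and chr4:135120503-135120532 (plus strand).
Runx1: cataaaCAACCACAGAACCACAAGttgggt
Runx2: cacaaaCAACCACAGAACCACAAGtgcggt
Runx3: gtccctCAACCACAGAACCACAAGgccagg
The run holds the Runx core letters TGTGGT 2 times, read on the opposite strand as ACCACA. With the start site used for each window as position 1 and the base before it as position -1, the run began at position 27 in Runx1, 22 in Runx2 and -136 in Runx3. Among 32851 promoter windows, 4 held it on either strand, those of the 3 Runx genes and that of Gm16225, whose window overlaps the Runx3 window on the other strand. The core TGTGGT alone was in 16.8% of all windows (both strands) and in 3 of the 10 windows here.

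The 250 bases before the start sites of Runx1 and Runx2, the Runx genes that were counted in these EC, are given with every match to the Runx letters TGTGGT, the Meis letters TGACAG or the Gfi letters AATCAC on either strand in capitals. They lie at chr16:92826075-92826324 and chr16:92697330-92697579 for the distal and the proximal start of Runx1 and at chr17:44814628-44814877 for Runx2, all on the minus strand. The RefSeq gene record of Runx2 reaches further upstream than the start site of this window, to chr17:44814797. Part of the Runx2 stretch thus lies inside the annotated gene.
Runx1 distal: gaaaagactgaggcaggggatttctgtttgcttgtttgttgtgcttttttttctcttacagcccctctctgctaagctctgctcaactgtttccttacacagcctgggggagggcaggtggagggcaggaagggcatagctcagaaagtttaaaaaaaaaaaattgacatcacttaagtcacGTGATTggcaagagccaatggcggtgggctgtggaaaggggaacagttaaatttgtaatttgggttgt
Runx1 proximal: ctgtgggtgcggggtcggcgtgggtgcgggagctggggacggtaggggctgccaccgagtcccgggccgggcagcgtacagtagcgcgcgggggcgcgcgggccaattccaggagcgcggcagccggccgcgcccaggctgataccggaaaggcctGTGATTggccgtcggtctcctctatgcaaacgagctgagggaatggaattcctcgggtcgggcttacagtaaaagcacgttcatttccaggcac
Runx2: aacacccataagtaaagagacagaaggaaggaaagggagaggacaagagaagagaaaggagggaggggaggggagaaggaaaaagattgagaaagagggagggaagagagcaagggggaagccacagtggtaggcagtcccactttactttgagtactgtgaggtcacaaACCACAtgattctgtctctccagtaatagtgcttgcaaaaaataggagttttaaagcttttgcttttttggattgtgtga
The Gfi letters were in both Runx1 windows, beginning at positions -68 and -94, and in 10.4% of all windows. The Runx2 stretch holds 1 more match to the Runx letters, at position -80. The Meis letters were found in 1 of the 10 windows, that of the distal start of Runx3 (chr4:135120404-135120433, plus strand), where 19.2% of all windows held them.
Runx3 distal: tcacagcccaggTGACAGtggcctagccaa
The gene counts do not separate the start sites of a gene, and matches to letters are a description of these windows only.

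Libraries are named by group and letter, A to C, and values follow that order. They held between 34176592 and 47956569 counts. Meis1 had between 135325 and 157828 counts in the Meis1-OE libraries, where vector and endogenous reads were not separated. In the YFP-CTRL libraries it had between 39 and 85. The YFP-CTRL libraries differed among themselves in cell cycle genes. The mean log2(CPM + 1) of 15 S phase and mitosis genes, used here as a cell cycle score, was 4.33, 5.30 and 6.49 in YFP-CTRL A to C and between 6.48 and 6.53 in the Meis1-OE libraries. CPM are counts scaled to the library size after TMM normalization, which assumes that most genes do not change. None of the 15 genes passed the threshold (2 were higher at an unadjusted p under 0.05 in edgeR, median log2 fold change 0.89), while without YFP-CTRL C 14 of the 15 were higher, with a median of 1.72. YFP-CTRL C stood with the Meis1-OE libraries on this score. To show how far they depend on this library, the member and pathway results below are also given without it, in a fit that called 31.7% of all tested genes. Leaving out the control most like the Meis1-OE libraries favours larger group differences by that choice, so this fit is no support for a change.

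No gene of this group passed the threshold with all 6 libraries: 0 of the 4 tested genes were higher and 0 were lower at an adjusted p under 0.05 (edgeR's quasi-likelihood test, Benjamini-Hochberg adjustment over 16065 genes), where 6.87% of all tested genes passed. At an unadjusted p under 0.05, Runx2 was higher and Gfi1 lower, against 26.2% of all tested genes in either direction. DESeq2 called 1 of the 4, Gfi1 (12.3% of its 18187 genes).

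Runx1, the factor that opens the hematopoietic program in HE, had a lower mean in Meis1-OE EC, but did not pass the threshold. Its counts were 2835, 2809 and 2876 in Meis1-OE A to C, or 62.0, 61.9 and 62.1 CPM. The YFP-CTRL libraries had 3605, 4178 and 2371 counts, or 106, 102 and 52.2 CPM. YFP-CTRL libraries A and B thus lay above every Meis1-OE library and C lay below every one. Runx1 in Meis1-OE EC was 0.714-fold of that in YFP-CTRL EC (95% interval 0.473 to 1.08, log2 fold change -0.49, standard error 0.25, edgeR adjusted p = 0.271). In these bulk samples, fewer cells that carry a transcript and less of it in each cell cannot be told apart. Without YFP-CTRL library C, Runx1 was lower with a log2 fold change of -0.76 (edgeR adjusted p = 0.00125, against that background of 31.7%). Library C was the only control below the Meis1-OE libraries, so leaving it out separates the groups by itself. With the cell cycle score as a covariate the sign turned, to 0.12 (standard error 0.18, edgeR adjusted p = 0.773).

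Runx2, the paralog known from bone, was higher in each Meis1-OE library, but did not pass the threshold. It was at 29.7, 31.0 and 27.6 CPM in Meis1-OE A to C, from 1358, 1405 and 1280 counts. In YFP-CTRL A to C it was at 24.4, 13.7 and 8.87 CPM, from 829, 558 and 403 counts. All 3 Meis1-OE libraries lay above all 3 YFP-CTRL libraries, as they did for 17.2% of the tested genes (33.1% in either direction), and this held for 1 of the 4 tested members. Runx2 was 1.88-fold of the YFP-CTRL level (95% interval 1.10 to 3.24, log2 fold change 0.91, standard error 0.33), with an edgeR adjusted p of 0.140. Its highest YFP-CTRL value was that of library A, which had the lowest cell cycle score, and its lowest that of library C. Without YFP-CTRL library A its log2 fold change was 1.37 (edgeR adjusted p = 0.0226, with 6.36% of tested genes called), and without library C it was 0.63 (edgeR adjusted p = 0.0818). With the cell cycle score as a covariate it was 1.79 (standard error 0.14, edgeR adjusted p = 0.00353, with 4.64% of tested genes called).

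Runx3, the third paralog, had 0 counts in all 6 libraries, which allows at most 0.0648 to 0.0883 CPM (3 counts per library). It was thus below detection at this depth in both conditions.

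**Figure D1:**
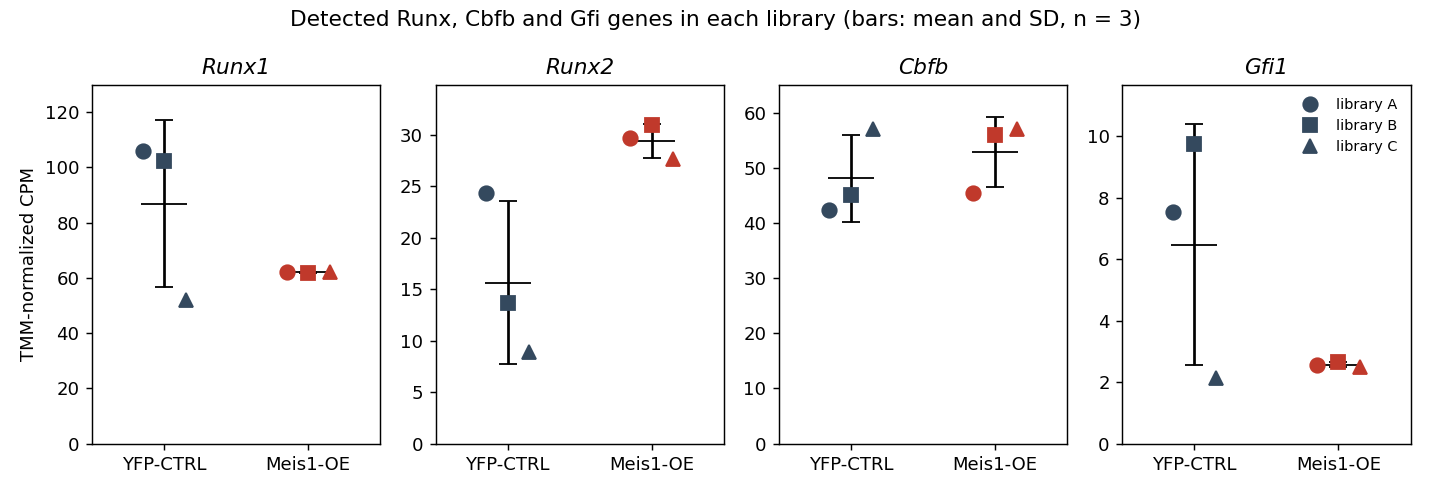
TMM-normalized CPM (vertical axes from 0) of Runx1, Runx2, Cbfb and Gfi1 in the YFP-CTRL and Meis1-OE libraries; points are libraries A, B and C and bars the mean and SD of 3. The Meis1-OE points of Runx1 and Gfi1 are tightly grouped and lie between YFP-CTRL library C and libraries A and B, while those of Runx2 lie above all YFP-CTRL points.

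Because library size cancels in a ratio within a library, the share of Runx2 among Runx1 and Runx2 counts was also taken, a measure chosen after the values were seen. It was 32.4%, 33.3% and 30.8% in Meis1-OE A to C, with 95% exact binomial intervals from 29.4% at the lowest to 34.8% at the highest. In YFP-CTRL A to C it was 18.7%, 11.8% and 14.5%, with intervals from 10.9% to 19.9%, which cover counting error only. The groups did not overlap, and YFP-CTRL library C lay with its group on this measure. Runx2 alone already separated the groups, as 33.1% of tested genes did in either direction. The share is thus no further support, and how often other pairs of genes separate was not counted. The means were 32.2% ± 1.28 and 15% ± 3.48 (SD, n = 3 each), with a two-sided exact permutation p of 0.1, the smallest that 3 against 3 libraries can give. The sum of both genes was 91.7, 92.8 and 89.8 CPM in Meis1-OE A to C and 130.5, 116 and 61.1 CPM in YFP-CTRL A to C. The groups overlapped through YFP-CTRL C alone, which was below every Meis1-OE library where A and B were above. Counts were not corrected for transcript length here, so the share is one of reads and not of molecules.

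**Figure D2:**
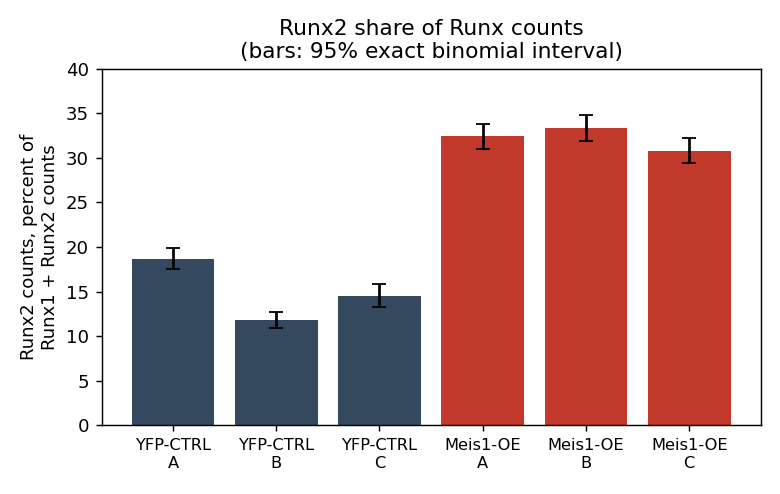
Runx2 counts as a percent of Runx1 plus Runx2 counts (vertical axis from 0) in each library, with 95% exact binomial intervals. The 3 Meis1-OE bars stand between 30.8% and 33.3% and the 3 YFP-CTRL bars between 11.8% and 18.7%.

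Cbfb, the shared partner of all Runx proteins, differed by less than the spread between libraries. It was at 45.5, 56.0 and 57.0 CPM in Meis1-OE A to C and at 42.3, 45.0 and 57.1 CPM in the YFP-CTRL ones. The groups overlapped, and the highest value was that of YFP-CTRL C. Its log2 fold change was 0.13 (standard error 0.16, edgeR adjusted p = 0.630), and the 95% interval of the fold, 0.850 to 1.42, leaves room for a moderate change either way. With the cell cycle score as a covariate it was -0.085, and without YFP-CTRL C 0.26 (edgeR adjusted p = 0.138). There were 2.02, 1.66 and 1.57 Runx counts per Cbfb count in Meis1-OE A to C and 3.09, 2.58 and 1.07 in YFP-CTRL A to C, so the ratio overlapped between the groups (two-sided exact permutation p = 0.5).

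Gfi1, the repressor that acts below Runx1 in HE, was low in all libraries, with a lower mean in Meis1-OE EC that did not pass the threshold in edgeR. It had 117, 120 and 115 counts in Meis1-OE A to C, or 2.56, 2.64 and 2.48 CPM. The YFP-CTRL libraries had 256, 398 and 97 counts, or 7.54, 9.76 and 2.14 CPM. As for Runx1, YFP-CTRL libraries A and B were above every Meis1-OE library and C was below every one. Gfi1 in Meis1-OE EC was 0.397-fold of the YFP-CTRL level (95% interval 0.179 to 0.881, log2 fold change -1.33, standard error 0.49, edgeR adjusted p = 0.143). DESeq2 gave -1.36 with an adjusted p of 0.0372. Leaving out YFP-CTRL C gave a log2 fold change of -1.77 (edgeR adjusted p = 0.00140), where 31.7% of all tested genes were called. This too separates the groups by itself. Without library B the log2 fold change was -0.90, and with the cell cycle score as a covariate it was -0.22 (edgeR adjusted p = 0.858).

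The other members were not detectable. Gfi1b, the paralog of Gfi1 used in erythroid and megakaryocytic cells, had 1 count in YFP-CTRL library C and 0 elsewhere. Runx1t1 had 2 counts in Meis1-OE library B and 2 in YFP-CTRL library C and 0 in the others. Myb had 2 counts in Meis1-OE library A and 0 in the others. With at most 2 counts per library, all lay under 3 counts, which is 0.0883 CPM in the shallowest library, and no difference could be measured.

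Per kilobase of exon, with lengths from the GENCODE M1 annotation of the older build NCBIM37, Cbfb was the most abundant of the group at 15.6 to 19.6 CPM per kb in Meis1-OE EC and 14.5 to 19.6 in YFP-CTRL EC. Runx1 followed at 7.94 to 7.97 and 6.69 to 13.6 CPM per kb, and did not overlap with Cbfb in either group. Runx2 was at 3.13 to 3.50 CPM per kb in Meis1-OE EC and 1.0 to 2.76 in YFP-CTRL EC. Gfi1 was at 0.764 to 0.814 CPM per kb in Meis1-OE EC, below Runx2, and at 0.657 to 3.0 in YFP-CTRL EC, where the ranges of both genes overlapped.

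Over the YFP-CTRL libraries, Runx1, Runx2 and Cbfb stood in the order of the cell cycle score or its reverse, and Gfi1 did not. Such an order over 3 libraries arises easily without a link, and its share over all tested genes was not taken. From YFP-CTRL A to B to C the score increased, Runx1 and Runx2 were lower at each step and Cbfb was higher at each step, while Gfi1 was highest in B and lowest in C. The Meis1-OE libraries were at nearly the same score as YFP-CTRL C. There they had 61.9 to 62.1 CPM of Runx1 against 52.2, 2.48 to 2.64 CPM of Gfi1 against 2.14, and 27.6 to 31.0 CPM of Runx2 against 8.87. The score was 6.50 ± 0.0250 in Meis1-OE EC and 5.37 ± 1.08 in YFP-CTRL EC (SD, n = 3 each, two-sided exact permutation p = 0.2). Only 1 YFP-CTRL library was at the score of the Meis1-OE libraries, and the part of the cell cycle in these values was not tested beyond the covariate fit. That library, C, also differed from the other controls in the smooth muscle marker Acta2, at 19.9 CPM against 0.206 in A and 2.18 in B.

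**Figure D3:**
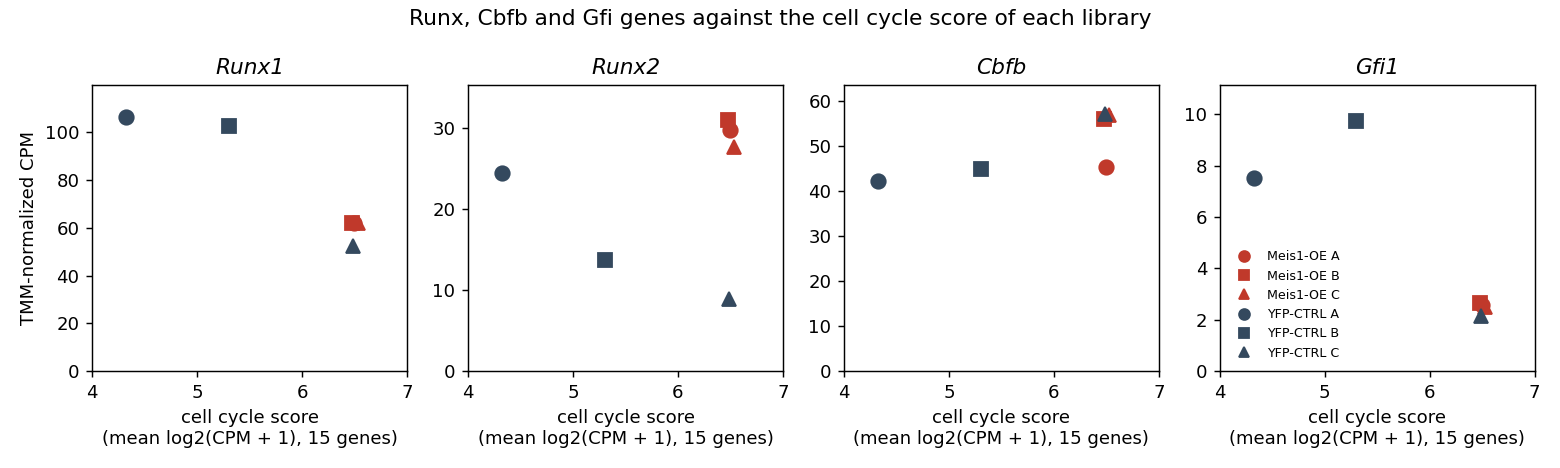
TMM-normalized CPM (vertical axes from 0) of Runx1, Runx2, Cbfb and Gfi1 against the cell cycle score of each of the 6 libraries. YFP-CTRL library C, at a score of 6.49, has 52.2 CPM of Runx1 and 2.14 CPM of Gfi1, just below the Meis1-OE libraries, and 8.87 CPM of Runx2, far below them.

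**Figure D4:**
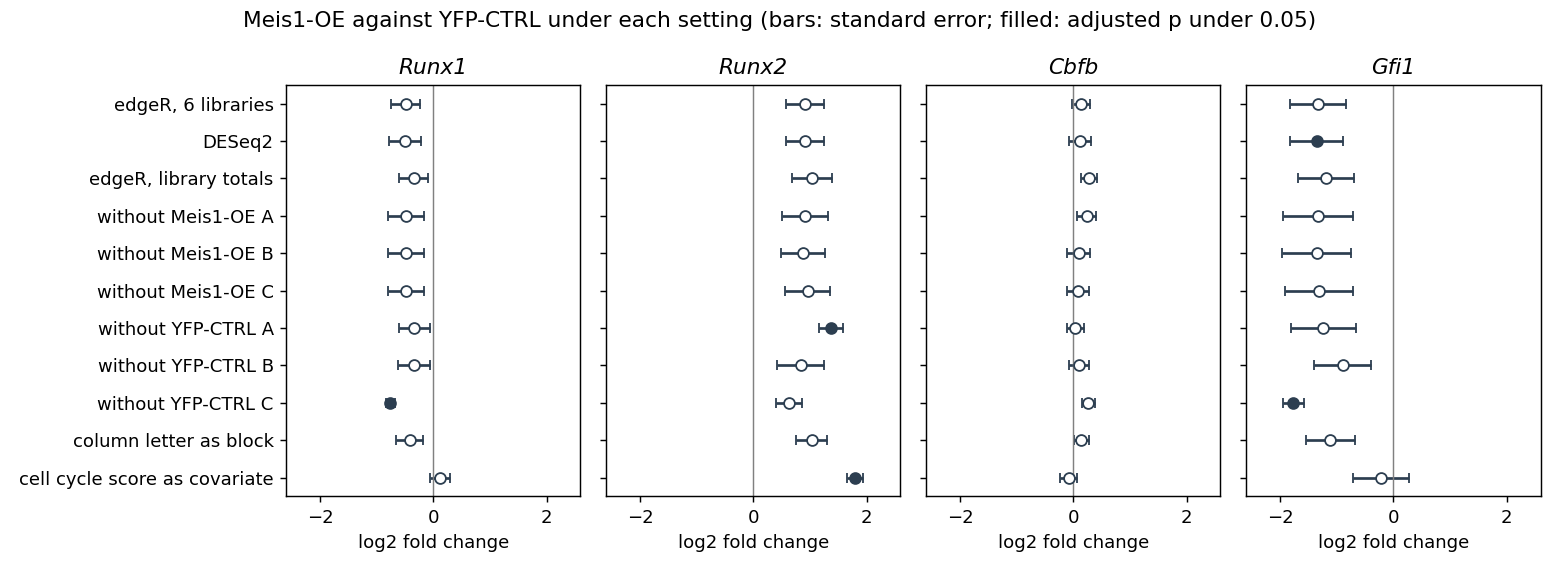
Log2 fold change of Meis1-OE against YFP-CTRL EC with its standard error for Runx1, Runx2, Cbfb and Gfi1 under 11 settings; filled points had an adjusted p under 0.05. Runx2 stays above 0 and Gfi1 below 0 in every setting shown, while Runx1 and Cbfb change sign with the covariate.

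Genes with a pattern most like that of Runx1 were sought among 10221 others with a mean of at least 5 CPM, by the root mean square difference of centred log2(CPM + 1) over the 6 libraries. They were Psat1, an enzyme of serine synthesis (0.03), the NF-kB subunit Relb (0.05) and the RNA editing enzyme Adar (0.07). Psat1 was at 217, 206 and 217 CPM in the Meis1-OE libraries and 368, 367 and 182 CPM in YFP-CTRL A to C, with library C again the lowest of the 6.

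All listed co-regulators of Runx proteins were measured. Of 16 listed partners, 3 fell and 0 rose at an adjusted p under 0.05 (2.73% and 4.14% of all tested genes), with a median log2 fold change of 0.05 against 0.01 over all tested genes. Tle1, a Groucho corepressor that binds Runx proteins, fell from 32.7, 27.5 and 23.4 CPM in YFP-CTRL A to C to 11.3, 12.6 and 11.5 CPM in the Meis1-OE ones, without overlap (log2 fold change -1.24, standard error 0.15, edgeR adjusted p = 0.00771). Its paralog Tle3 fell from 214 ± 51.2 to 123 ± 7.73 CPM (SD, n = 3 each, log2 fold change -0.80, edgeR adjusted p = 0.0476). Prmt1, which methylates arginines of Runx1, fell from 188 ± 32.0 to 118 ± 3.52 CPM (SD, n = 3 each, log2 fold change -0.67, edgeR adjusted p = 0.0355). Leaving out single libraries gave adjusted p-values of up to 0.0583 for Tle1, 0.216 for Tle3 and 0.192 for Prmt1 in edgeR. Tle1 did not pass without Meis1-OE library B or C, Tle3 passed only without YFP-CTRL library C, and Prmt1 only without YFP-CTRL library A or C. On library totals Tle3 (0.0869) and Prmt1 (0.0832) did not pass, nor did they with the covariate (0.147 and 0.0795). Library totals, which raised the median of all genes to 0.15, turned the split of the list to 3 higher and 1 lower. DESeq2 gave 4 higher and 4 lower, where it called 12.3% of its genes. Without YFP-CTRL C, 3 were higher and 5 lower, where 31.7% of all tested genes were called. Leaving out Meis1-OE B or C left 0 in either direction.

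Cbfa2t2 and Cbfa2t3, the relatives of Runx1t1, were measured where Runx1t1 itself was not. Cbfa2t2 was at 54.5, 54.5 and 57.4 CPM in Meis1-OE EC and at 42.5, 36.7 and 42.9 CPM in YFP-CTRL EC, and Cbfa2t3 at 48.4, 58.9 and 60.8 CPM against 33.7, 40.4 and 42.5 CPM. All Meis1-OE libraries were above all YFP-CTRL libraries for both, as they were for 17.2% of the tested genes. The log2 fold changes were 0.45 and 0.53, with edgeR adjusted p-values of 0.0590 and 0.0717. Without YFP-CTRL C these p-values were 0.00978 and 0.0204, where 31.7% of all tested genes were called. With the covariate they were 0.11 and 0.24, and leaving out other single libraries gave up to 0.255 and 0.289.

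Gfi proteins repress through Kdm1a and the CoREST proteins. Of 9 listed corepressors, 0 were higher and 0 were lower (edgeR), and DESeq2 called 0. At an unadjusted p under 0.05 in edgeR 2 were lower (Kdm1a and Hdac2), where 26.2% of all tested genes passed in either direction. Without YFP-CTRL C, Hmg20b was higher (edgeR adjusted p = 0.00522) and Kdm1a (0.0213) and Hdac2 (0.0474) were lower. That fit called 31.7% of all tested genes, so these calls are near the share of all genes. The median log2 fold change was -0.03. Kdm1a averaged 31.0 ± 2.31 CPM with Meis1 and 38.5 ± 2.94 CPM in the controls (SD, n = 3 each, log2 fold change -0.31, edgeR adjusted p = 0.152).

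Myb was not detectable, and its relatives Mybl1 and Mybl2 were expressed. Mybl1 (A-Myb) rose from 8.30, 10.3 and 16.0 CPM in YFP-CTRL A to C to 23.9, 28.6 and 27.7 CPM in Meis1-OE A to C (log2 fold change 1.21, standard error 0.24, edgeR adjusted p = 0.0331). It did not pass when YFP-CTRL library B or any one Meis1-OE library was left out (edgeR adjusted p up to 0.156), and with the covariate it was at 0.76 (0.0390). It passed without YFP-CTRL C (edgeR adjusted p = 0.00130). Mybl2 (B-Myb), a gene of proliferating cells, averaged 27.7 ± 0.994 CPM (SD, n = 3) with Meis1 and stood at 11.7, 12.7 and 41.9 CPM in YFP-CTRL A to C, in the order of the cell cycle score. Its log2 fold change was 0.32 (edgeR adjusted p = 0.702), and 1.17 without YFP-CTRL C (0.00107).

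Of 13 listed regulators that act above Runx1 in HE, 12 were tested, 1 was higher and 0 were lower, where 4.14% and 2.73% of all tested genes were. The counts moved to 2 higher and 2 lower with DESeq2 (12.3% of its genes called) and 2 and 4 without YFP-CTRL A (6.36%). They were 4 and 2 without YFP-CTRL C (31.7% of all tested genes called) and 1 and 3 with the covariate (4.64%). Etv2 had at most 1 count. Lmo2, the bridging factor of the Tal1 complex, rose from 6.83, 6.72 and 10.3 CPM in YFP-CTRL A to C to 20.9, 28.2 and 35.6 CPM in Meis1-OE EC (log2 fold change 1.83, standard error 0.25, edgeR adjusted p = 0.0107). Leaving out single libraries moved it between 1.63 and 2.04 with adjusted p-values of up to 0.0625 in edgeR, and without Meis1-OE library B or C or YFP-CTRL library B it did not pass. Sox17, an endothelial factor of arterial and hemogenic cells, was at 103, 114 and 136 CPM in Meis1-OE A to C and 28, 47.8 and 70.2 CPM in YFP-CTRL A to C, without overlap. Its log2 fold change was 1.27 (edgeR adjusted p = 0.0549). It passed in 6 of 14 alternatives, among them DESeq2 (0.00199) and the fit without YFP-CTRL C (edgeR, 0.00505). Sox17 did not pass when YFP-CTRL library B or any one Meis1-OE library was left out (edgeR adjusted p up to 0.206). Its YFP-CTRL values were in the order of the cell cycle score, and with the covariate it was at 0.68 (edgeR adjusted p = 0.0706). The median log2 fold change of the 12 was -0.02.

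Of 16 blood genes downstream, 6 were tested, 1 was higher and 0 were lower, beside the same 4.14% and 2.73% of all tested genes. DESeq2 (12.3% of its genes called), the fit without YFP-CTRL A (6.36%) and the covariate (4.64%) each gave 1 higher and 1 lower. Without YFP-CTRL C (31.7%) 2 were higher and 0 lower. The fits without YFP-CTRL A or C each tested 7 of these genes. Cebpa, a myeloid transcription factor, rose from 0.854, 0.564 and 0.660 CPM in YFP-CTRL A to C to 2.08, 1.92 and 1.75 CPM in Meis1-OE EC (log2 fold change 1.47, standard error 0.26, edgeR adjusted p = 0.0213). These were 81 to 95 counts against 23 to 30. It did not pass when YFP-CTRL library B or any one Meis1-OE library was left out (edgeR adjusted p up to 0.127). Kit, the stem cell factor receptor, was at 3.24, 2.84 and 4.19 CPM in Meis1-OE A to C and 4.24, 6.08 and 10.8 CPM in YFP-CTRL A to C, without overlap. Its log2 fold change was -1.04 (edgeR adjusted p = 0.121), with adjusted p-values of 0.0357 in DESeq2, 0.0495 without YFP-CTRL A, 0.115 without YFP-CTRL C and 0.0127 with the covariate in edgeR. The adhesion receptor gene Adgrg1 was abundant at 343 ± 8.13 CPM with Meis1 and 346 ± 81.7 CPM in the controls (SD, n = 3 each, edgeR adjusted p = 0.968). Csf1r had 15, 26 and 18 counts in Meis1-OE A to C and 1, 4 and 12 in YFP-CTRL A to C. Its log2 fold change was 1.63 (edgeR adjusted p = 0.148, 0.0210 without YFP-CTRL C and 0.565 with the covariate). Cd27, which was not tested, had 6, 11 and 14 counts against 0, 3 and 1. Itga2b (56 to 118 counts) and Spn (2 to 66) overlapped between the groups. Ptprc, Coro1a and Rac2 had at most 9 counts. The myeloid genes Spi1 and Mpo, the lymphoid gene Ikzf1 and the pan-blood genes Vav1 and Laptm5 reached 2 counts at most in any library, and Nfe2 had 0 in all.

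**Figure D5:**
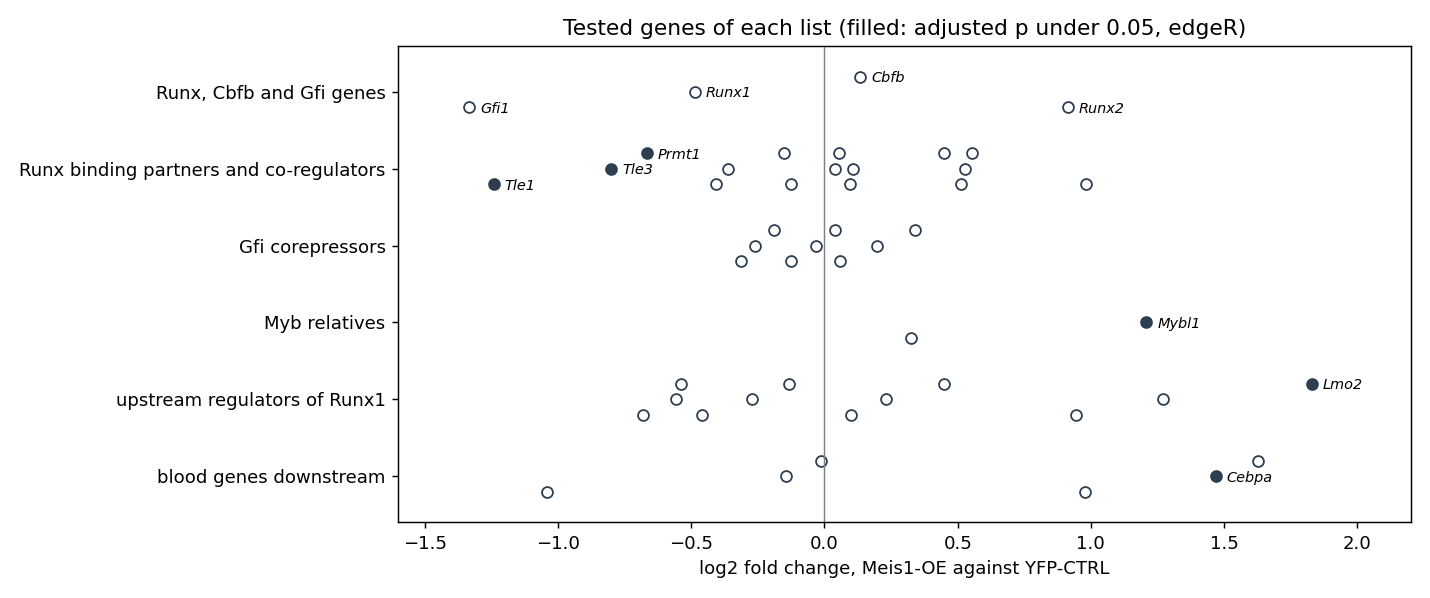
Log2 fold change (Meis1-OE against YFP-CTRL EC) of each tested gene in 6 lists, one list per row; filled points had an adjusted p under 0.05 in edgeR. Tle1, Tle3 and Prmt1 are the filled points below 0 and Mybl1, Lmo2 and Cebpa those above 0, while Gfi1, Runx1, Cbfb and Runx2 are open.

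Markers of the sorted cell type were present. The 10 endothelial markers summed to 3515 to 4463 CPM with Meis1 and 4468 to 6140 CPM in the controls, led by Cdh5. At the threshold 2 were higher (Vwf and Cldn5) and 1 lower (Tek), where 4.14% and 2.73% of all tested genes were. When single libraries were left out, Vwf passed in 3 of 6 fits and Cldn5 and Tek in 2 of 6, and without Meis1-OE B, Meis1-OE C or YFP-CTRL B no endothelial marker passed. DESeq2 gave 2 higher and 3 lower, where it called 12.3% of its genes. The lower ones included Kdr (edgeR log2 fold change -1.23, adjusted p = 0.0504) and Cdh5 (-0.70, 0.0535), which were below the controls in every Meis1-OE library. Markers of other cells that use these genes were near 0 where they define the cell. Of 8 macrophage markers, C1qa, C1qb, C1qc, Tyrobp and Adgre1 had 0 counts in every library, and the sum of 69.5 to 106 CPM with Meis1 and 65.1 to 140.0 CPM in the controls came almost entirely from Cd68. Of 6 T cell markers, 4 had at most 1 count, Cd3g and Cd3d had 0 in every library, and Lck, the highest, had a mean of 2.04 and 3.22 CPM. For Runx2, the osteoblast markers Sp7, Bglap, Ibsp and Dlx5 had at most 2 counts in any library. The sum of 7 osteoblast markers was higher with Meis1 (45.5 to 62.2 CPM) than in the controls (26.9 to 38.9 CPM). In Meis1-OE EC that sum was led by the phosphatase Alpl (log2 fold change 2.11, edgeR adjusted p = 0.0416), which did not pass without any one Meis1-OE library (edgeR adjusted p up to 0.162) or YFP-CTRL library A (0.0517), nor with the covariate (0.195). The part of these genes in the Runx2 values was not tested. Of 5 smooth muscle markers 2 were tested and 1 was higher, Des, where 4.14% of all tested genes were. Des had 18 to 24 counts against 0 to 2. Its call was lost without any one Meis1-OE library (edgeR adjusted p up to 0.0850), without YFP-CTRL B (0.0693) and with the covariate (0.0795). The 5 summed to 1.75 to 4.0 CPM with Meis1 and 0.559 to 20.9 CPM in the controls, with Acta2 at 19.9 CPM in YFP-CTRL library C.

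The other members lie at chr16:92601466-92826074 (Runx1), chr4:135120645-135177990 (Runx3), chr2:28609450-28621982 (Gfi1b), chr4:13742628-13895056 (Runx1t1) and chr10:21124930-21160984 (Myb) in GRCm38, the build of all coordinates here. Genes that overlap these loci could share reads, since no source used here says that strand was counted. Runx2 (chr17:44495987-44814797) overlaps Supt3, which had 318 to 456 counts, and Runx2os3, which had 0, and Cbfb (chr8:105170674-105217989) overlaps Gm22063, which had 1 to 7. Other overlapping genes of Runx1, Cbfb and Gfi1b were not in the count table, and Gfi1 (chr5:107716655-107725805) overlaps no other RefSeq gene.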

How the data were processed

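Ribodepleted RNA-seq was analysed for 6 libraries of transduced EC. The authors deposited estimated counts per gene that were not normalized. The submitters' processing notes name build mm10, and the aligner, the counting tool and the use of strand are not given in the sources used here. Values were rounded to whole numbers, since 7767 to 8411 genes per library had fractional ones. Columns carry letters, which the labels do not tie to replicate numbers.

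All genes were tested with edgeR 4.0.16 in R 4.3.3 (TMM, filterByExpr, quasi-likelihood test, two-sided, Benjamini-Hochberg threshold 0.05, standard errors derived from its F statistic). DESeq2, the tool the study named, was run as an alternative in version 1.42.0. Members and gene lists were chosen with earlier results of these data known. Named genes were all members, Meis1, pathway list genes past the threshold, the highest marker and markers at 0 of each marker list, and the 3 patterns nearest to Runx1. Cbfa2t2, Cbfa2t3, Kdm1a, Hdac2, Mybl2, Etv2, Sox17, Kit, Adgrg1, Hmg20b, Alpl, Kdr, Vwf, Cldn5, Tek and Des were named after their values were seen. So were Csf1r, Cd27, Itga2b, Spn and the markers and blood genes with few counts. A count of 3 was taken as the detection floor. Binomial intervals of shares and floors describe counting error alone, as reads were not collapsed to molecules, while intervals of fold changes come from edgeR's standard errors and hold the spread between libraries. Further settings were another size factor (DESeq2's) or library totals for scaling, the low-count filter removed or set to 10 counts per library, robust fitting, leaving out each library, the column letter as a block, and the cell cycle score as a covariate.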

Additional observations from a re-analysis of the deposited data

How the results depend on the processing

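Over 14 alternatives each, Runx2 stayed positive (log2 fold change 0.63 to 1.79) and Gfi1 negative (-1.77 to -0.22), and each passed the threshold in 2. Runx1 passed in 1 and turned to 0.12 with the cell cycle score as a covariate, where Cbfb turned to -0.085, and the covariate rests on 3 YFP-CTRL libraries that differ in this score. Counts of genes of this group past the threshold were 0 higher and 0 lower, 1 lower with DESeq2, 1 higher with the covariate, and 0 to 1 higher and 0 to 2 lower with single libraries left out. Over all genes, 665 higher and 438 lower became 1048 and 179 on library totals (median log2 fold change 0.15 against 0.01), 1124 and 1115 with DESeq2, 410 higher with the covariate, and 115 to 2717 higher and 16 to 2498 lower with single libraries left out. A replicate block on the column letter gave 544 higher and 189 lower and no gene of this group passed. With that block Runx2 had a log2 fold change of 1.03 (edgeR adjusted p = 0.0972). Same-letter deviations had correlations across genes of 0.245, 0.190 and 0.0809. Different-letter ones ran from -0.301 to -0.0275, except that Meis1-OE library C was closest to YFP-CTRL library B (0.249). Pairing by letter was thus not settled, and letters were not taken as pairs. The causes were not tested. Depth limits the 4 genes at or under 2 counts.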
